A study of Arabidopsis thaliana with 12 samples.

Results

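In Arabidopsis thaliana cells induced to form tracheary elements, 25 genes that the array annotation lists only by their locus code had their highest transcript signal on day 4. They were chosen by their measured values, from 11933 probe sets that read 1 such gene each. With signals raised to 20 and put on a log2 scale, the day 4 mean had to exceed the means of days 0, 2 and 10 by at least 1 each. It also had to exceed the means of days 6 and 8 by at least 0.7 each, both day 4 signals had to reach 60, and 3 loci were left out by name. The day 4 peak is therefore the reason these genes are described, and comparisons of these 25 genes with day 4 are given as description with no test.

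Tracheary elements are the water-conducting cells of xylem. They first expand within a thin primary wall, then deposit a patterned secondary wall rich in cellulose, xylan and lignin, and finally die and empty themselves. Pectin of the primary wall is cut by enzymes such as pectate lyases, and receptor-like kinases carry signals from the wall and the cell surface into the cell. The genes described here include members of both families, beside a transporter, a motor protein and proteins with no role given here.

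The cells were a suspension culture of accession Col-0, with 2 arrays on each of 6 days. Per the labels, days 2, 4, 6, 8 and 10 were counted from the transfer of 7.5 ml of culture aged 7 days into 42.5 ml of new medium with brassinolide, which is a brassinosteroid, at 1 uM and boric acid at 10 mM. Day 0 was labelled as having no treatment. For samples of every day the labels list the same pair of media, one with the synthetic auxin 2,4-D at 1 ug per ml and the other with brassinolide and boric acid, both with 3% sucrose, and do not say which of them a sample was in. The labelled temperature was 22 C on days 0, 4 and 8 and 27 C on days 2, 6 and 10, so day and labelled temperature cannot be told apart in a step between neighbouring days or in day 10 against day 0. All groups share the genotype and no transgene is named. Whether the 2 arrays of a day stand for separate cultures is not stated in the labels, and p-values then reflect only how far these arrays differ, which may be technical. The culture is a mixture of cells, and a signal does not tell whether fewer cells held a transcript or each cell held less of it.

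The 12 arrays had median signals from 33.2 to 40.7, and the 2 arrays of a day correlated across probe sets at r from 0.962 to 0.966. Of 48 marker genes looked up for the cell type, 12 were named by the annotation and tested. Their 10 xylem genes, of vessel cell death, xylan and lignin, were highest on day 6 in 9 cases, and only AT4G04460, an aspartic protease gene named PASPA3 in the literature, was highest on day 4. The summed signal of these 10 genes on the 2 arrays of a day was 757 to 828 at day 0, 1567 to 1650 at day 2, 3330 to 3958 at day 4, 5877 to 7093 at day 6, 4283 to 4435 at day 8 and 3248 to 3255 at day 10. A large part of this sum was the vessel death gene SCPL48 (AT3G45010), with means of 589 at day 0 and 2935 at day 6. The day 4 peak, by which the genes described here were chosen, thus came before the highest day of most of these xylem markers. Of 15 genes marking other cell types or dividing cells, 2 were named and tested, AUR1 and MCM7 of dividing cells. Their sum was 197 to 204 on day 4, against 265 to 297 on day 0, and its part in the results was not tested. The 2 genes differed: MCM7 was lower on day 4 than on day 0 (log2 -0.87 ± 0.13, adjusted p = 0.000107, limma). AUR1 did not pass that test (log2 -0.17 ± 0.17, adjusted p = 0.422, limma). Markers of phloem, procambium, green cells and epidermis were not analysed here.

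Each of the 25 genes is read by 1 probe set. In 25 of 25, both day 4 arrays lay above all 10 arrays of the other days, as the plot of signals by array shows. The rule chose the genes on these same values and so favours this order, which is therefore no evidence of the peak. A signal is called dim below where it lay under the 40th percentile of its array, which was between 17.2 and 22.1. On day 0, 19 of the 25 genes were dim on both arrays, against 5 at day 2, 0 at day 4, 3 at day 6, 5 at day 8 and 5 at day 10. Where both arrays of a day were dim, a fold is given as a lower bound, with each array raised to its own 40th percentile. The median over the genes of the mean signal was 12.4 at day 0, 38.5 at day 2, 176 at day 4, 77.0 at day 6, 48.5 at day 8 and 48.8 at day 10. The genes lie on all 5 chromosomes, with 4, 5, 7, 4 and 5 on chromosomes 1 to 5.

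**Figure D1:**
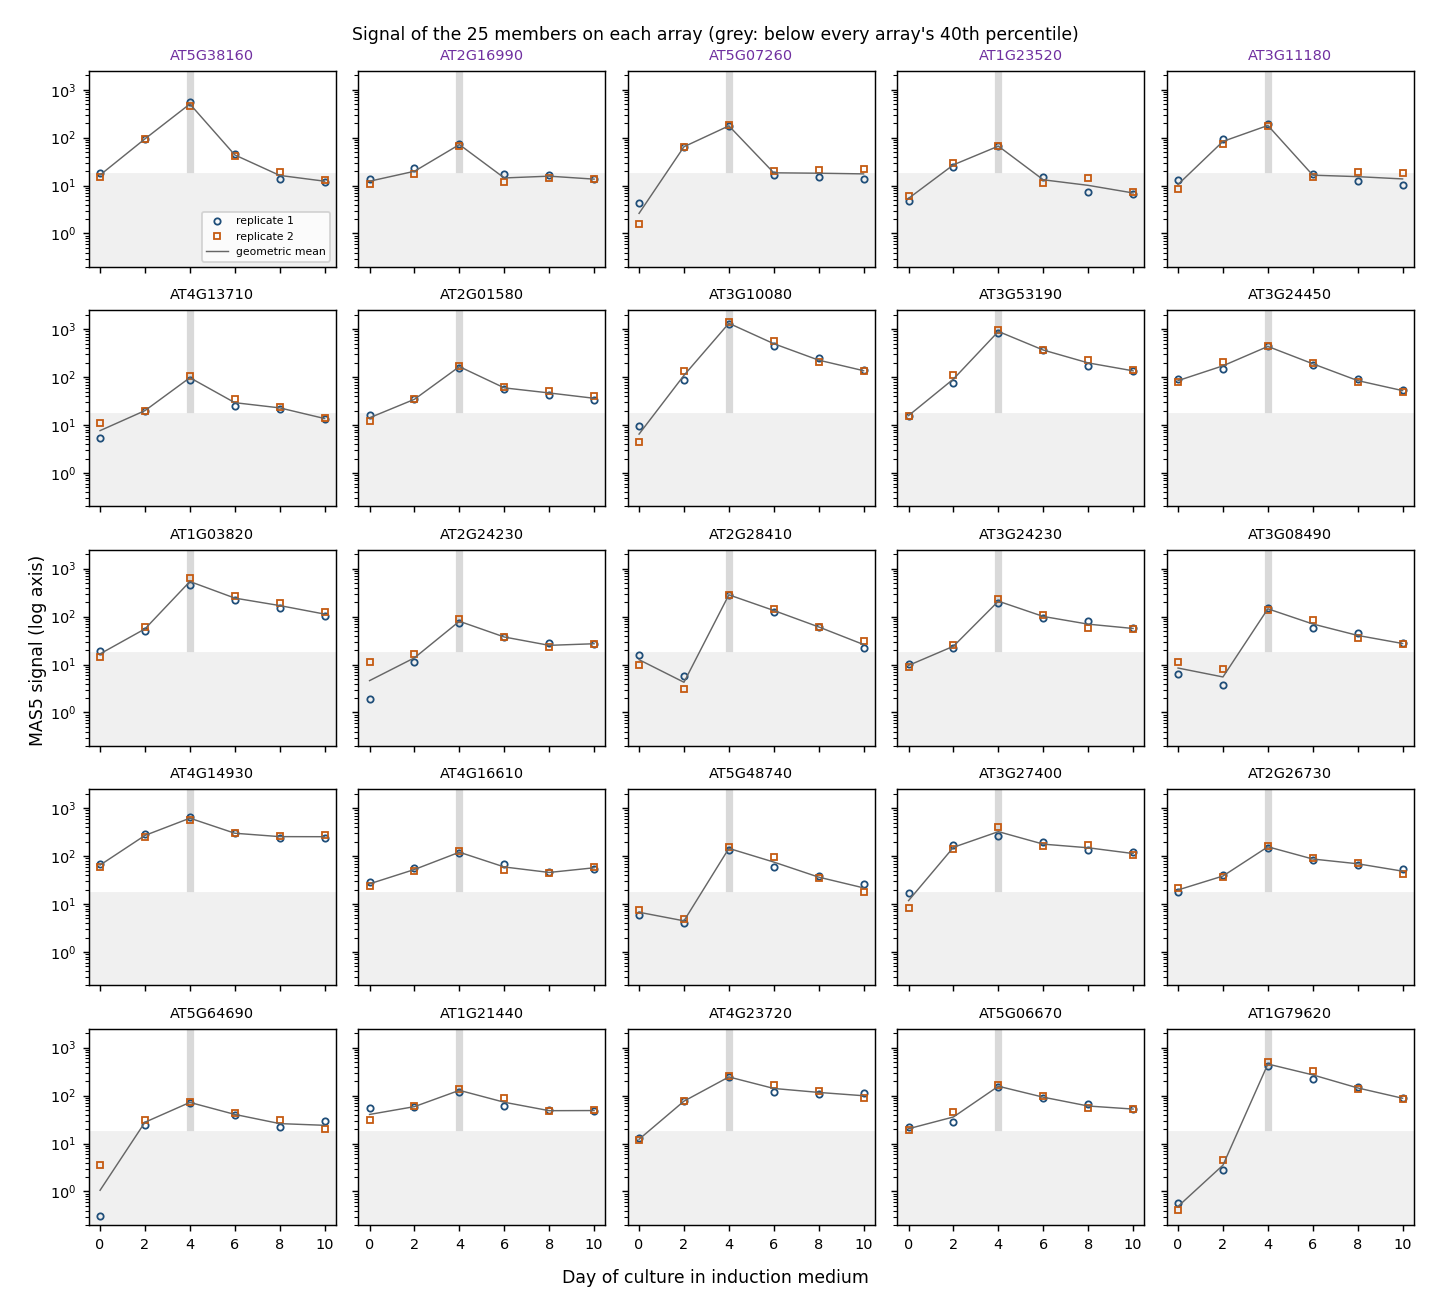
MAS5 signal (log axis) against day of culture for the 25 genes, 1 panel each. Circles and squares are the 2 arrays of a day, the line joins their geometric means, the grey area lies below the lowest 40th percentile of any array, and purple names mark the 5 genes whose next highest day was day 2. Both day 4 points stand above all other points in each panel, an order that the choice of genes favours.

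The excess of day 4 over the next highest day ranged from 0.75 to 2.42 on the log2 scale of the rule, with a median of 1.08. Genes just inside the thresholds were AT1G79620 and AT5G06670, at 0.75 and 0.76 over the higher of days 6 and 8, and AT4G16610, at 1.08 over the highest of days 0, 2 and 10. Just outside stood AT5G48800, with a lowest day 4 signal of 58.7. AT4G36430, at 0.96 over days 0, 2 and 10 and 0.65 over days 6 and 8, and AT5G50420, at 0.64 over days 6 and 8, were also just outside.

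The 3 genes for secreted or wall proteins had bright day 4 signals, with means from 505 to 1330.1. What each encoded protein is, here and below, is general background on the Arabidopsis genome, since the annotation used gives the locus alone. AT3G10080, for a germin-like protein of the cupin superfamily, had signals of 9.63 and 4.35 at day 0, 88.8 and 134 at day 2, 1255 and 1405 at day 4, 445 and 558 at day 6, 248 and 206 at day 8 and 142 and 131 at day 10. Its day 4 signal was at least 72.9-fold over day 0, 12.2-fold over day 2 and 2.66-fold over day 6. AT1G03820, related to the E6 protein of cotton fibres, had signals of 19.1 and 14.6 at day 0, 50.6 and 60.9 at day 2, 455 and 641 at day 4, 223 and 266 at day 6, 154 and 188 at day 8 and 104 and 123 at day 10. Both genes were dim on day 0 and bright on all later arrays. AT5G38160, for a small protein of the lipid-transfer and seed albumin type, had signals of 18.3 and 15.04 at day 0, 95.4 and 93.1 at day 2, 551 and 460.0 at day 4, 45.7 and 41.5 at day 6, 13.7 and 19.3 at day 8 and 11.7 and 13.0 at day 10. It had the largest excess over the next highest day, and its day 4 signal was 5.34-fold over day 2 and 11.5-fold over day 6. By day 8 its arrays were dim again, as on day 0.

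Pectate lyase-like genes made up 4 of the 25. AT3G53190 had signals of 15.7 and 15.8 at day 0, 76.8 and 108 at day 2, 821 and 980.4 at day 4, 366 and 369 at day 6, 171 and 229 at day 8 and 132 and 138 at day 10. AT3G27400 had signals of 17.0 and 8.18 at day 0, 168 and 139 at day 2, 265 and 396 at day 4, 195 and 162 at day 6, 133 and 168 at day 8 and 121 and 106 at day 10. These genes differed in how much of the signal was there before and after the peak: day 4 was 9.83-fold over day 2 for AT3G53190 and 2.12-fold for AT3G27400. AT3G24230 had signals of 10.2 and 9.02 at day 0, 22.4 and 25.9 at day 2, 191 and 230.4 at day 4, 94.6 and 107 at day 6, 81.9 and 59.2 at day 8 and 57.7 and 55.5 at day 10. AT4G13710 had signals of 5.33 and 11.0 at day 0, 19.9 and 20.1 at day 2, 89.1 and 106 at day 4, 25.02 and 34.3 at day 6, 21.7 and 24.02 at day 8 and 13.3 and 14.1 at day 10. It was dim at both ends of the series, whereas the other 3 were bright on both day 10 arrays.

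Of 27 pectate lyase-like loci recalled after the genes above were known, 23 were named by the annotation and 12 were tested. Of the 8 that are not among the 25, 4 had their highest mean at day 4, 3 at day 8 and 1 at day 2. Among 7184 tested probe sets of genes known only by locus, 962 were highest on day 4, which is 13.4%. AT4G24780 had signals of 77.0 and 128 at day 0, 1163 and 1142 at day 2 and 1259 and 1495 at day 4. For day 4 against day 2 it did not pass the test (log2 0.25 ± 0.18, adjusted p = 0.281, limma), and it already stood 11.6-fold higher on day 2 than on day 0 (log2 3.54 ± 0.18, adjusted p = 2.75e-08, limma). AT4G13210, at 79.5 and 92.7 on day 4 against 33.9 and 30.2 on day 2, rose 2.68-fold (log2 1.42 ± 0.17, adjusted p = 4.46e-05, limma). AT1G04680, at 166 and 254 on day 4 against 75.5 and 122 on day 2, rose 2.14-fold (log2 1.1 ± 0.23, adjusted p = 0.00213, limma). Its day 0 signals were 139 and 141, and day 4 against day 0 did not pass (log2 0.55 ± 0.23, adjusted p = 0.0514, limma). AT3G55140 was also highest on day 4, at 187 and 194 against 172 and 187 on day 0. It did not pass that test (log2 0.09 ± 0.12, adjusted p = 0.536, limma), whereas AT4G13210 (log2 0.91) and AT4G24780 (log2 3.79) were called higher than on day 0. AT5G04310 had a later course: it was dim on days 0, 2 and 4 and at least 6.31-fold higher on day 6, with 139.7 and 113, than on day 4, with 7.21 and 16.8 (adjusted p = 0.000137, limma). Over these 8 genes, 3 were called higher and 1 lower on day 4 than on day 2, against 22.3% higher and 22.5% lower of all 15103 probe sets tested (44.8% called). For day 6 against day 4, 1 was called higher and 3 lower, against 7.71% and 7.94% of all (15.6% called).

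**Figure D2:**
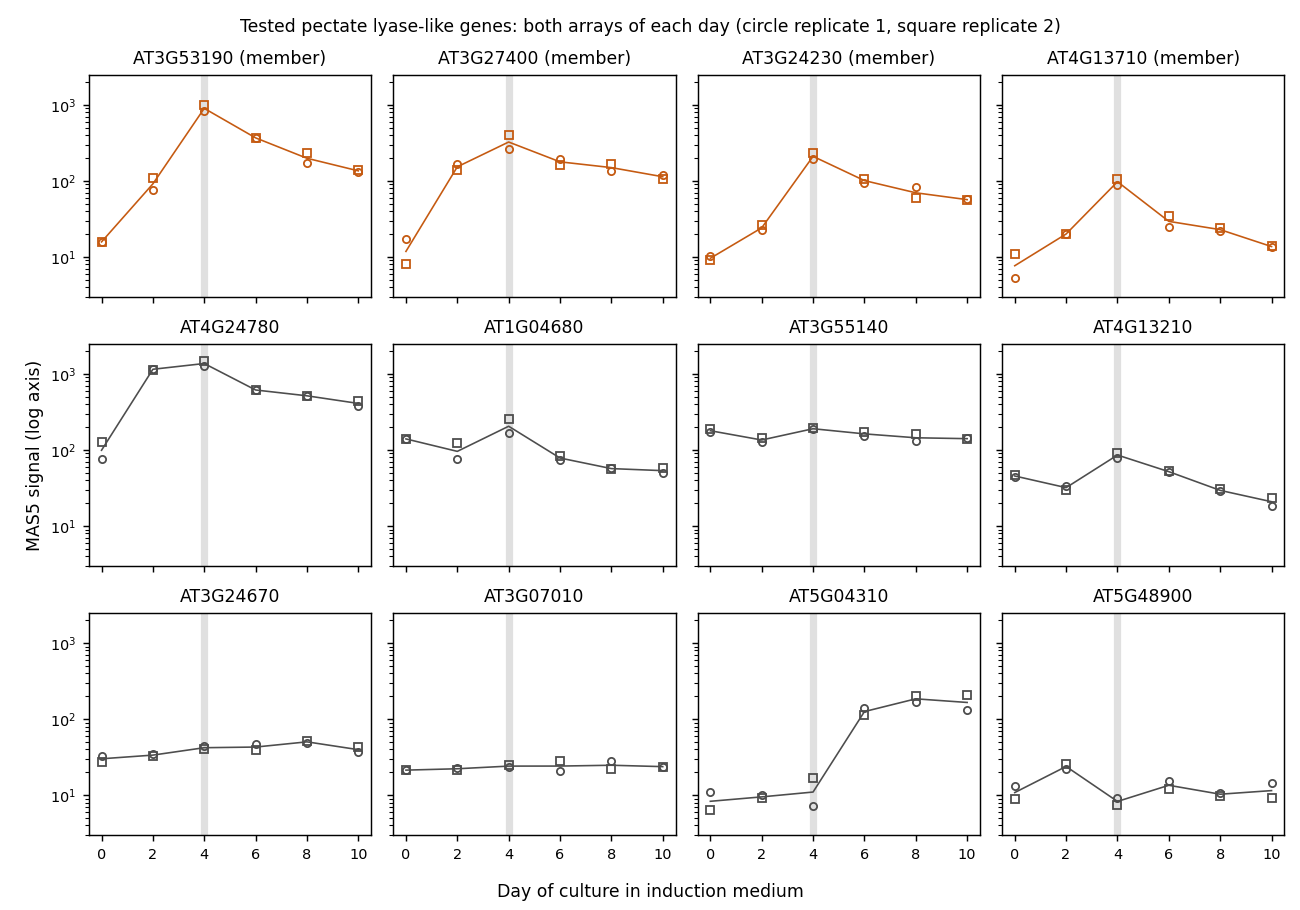
MAS5 signal (log axis) against day of culture for the 12 tested pectate lyase-like genes; circles and squares are the 2 arrays of a day and lines join their geometric means. The 4 genes of the day 4 set fill the top row, AT4G24780 is near its day 4 level on day 2, and AT5G04310 is above its day 4 level from day 6 on.

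The 4 leucine-rich repeat receptor-like kinase genes were low before day 4, and 3 of them were dim on both day 0 arrays. AT1G79620 had signals of 0.584 and 0.409 at day 0, 2.74 and 4.56 at day 2, 413 and 503 at day 4, 226 and 325 at day 6, 155 and 135 at day 8 and 90.8 and 85.5 at day 10. It was dim on both early days, so day 4 stood at least 24.6-fold over day 2, the largest such bound over day 2 among the 25. AT5G48740 had signals of 5.96 and 7.61 at day 0, 4.10 and 4.85 at day 2, 134 and 157 at day 4, 60.2 and 93.8 at day 6, 37.6 and 35.4 at day 8 and 26.2 and 18.003 at day 10. AT2G24230 had signals of 1.88 and 11.4 at day 0, 11.3 and 16.9 at day 2, 72.8 and 87.8 at day 4, 37.5 and 37.7 at day 6, 27.8 and 22.7 at day 8 and 27.0 and 27.3 at day 10. Both shared with AT1G79620 that days 0 and 2 were dim. AT2G26730 differed from these, with 17.6 and 22.0 at day 0, 40.1 and 36.8 at day 2, 149.8 and 164 at day 4, 83.8 and 90.3 at day 6, 65.5 and 73.1 at day 8 and 54.6 and 43.2 at day 10.

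AT5G06670, for a kinesin, a motor that moves along microtubules, had day 4 signals of 148 and 167, which were 4.38-fold over day 2 and 1.69-fold over day 6. AT4G16610, for a C2H2-like zinc finger protein, had day 4 signals of 114 and 127 and was the gene nearest to the threshold over days 0, 2 and 10. AT5G07260, for a protein with a START domain, a fold that binds lipids, had signals of 4.36 and 1.58 at day 0, 64.7 and 64.4 at day 2, 172 and 180.3 at day 4, 16.8 and 20.2 at day 6, 15.4 and 21.2 at day 8 and 13.9 and 22.0 at day 10. Its signal was near or under the 40th percentile from day 6 on.

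Enzyme genes and a transporter gene showed both early and late neighbours of the peak. AT3G11180, for a 2-oxoglutarate-dependent oxygenase of a group that hydroxylates jasmonate, had signals of 12.9 and 8.60 at day 0, 94.6 and 73.5 at day 2, 188 and 171 at day 4, 17.6 and 15.4 at day 6, 12.5 and 18.8 at day 8 and 10.4 and 18.2 at day 10. It was bright on days 2 and 4 only. Of the other 3 loci of that group, 2 were tested: AT5G05600 was lower on day 4 than on day 2 (log2 -2.17 ± 0.18, limma), and AT2G38240 did not pass that test. AT4G14930, for a SurE-like phosphatase, had signals of 69.9 and 60.5 at day 0, 294 and 249 at day 2, 665 and 576 at day 4, 299 and 302 at day 6, 242 and 269 at day 8 and 236 and 273 at day 10. Its arrays of days 2, 6, 8 and 10 lay between 236 and 302, with both day 4 arrays above and both day 0 arrays below them. AT3G24450, with a heavy-metal-associated domain, had signals of 91.7 and 78.0 at day 0, 146 and 204 at day 2, 437 and 437 at day 4, 180.0 and 200.5 at day 6, 89.3 and 80.3 at day 8 and 54.98 and 49.7 at day 10. It was bright on all 12 arrays, and its day 10 arrays lay below its day 0 arrays. AT1G21440, of the isocitrate lyase and PEP mutase superfamily, had day 4 signals of 121 and 137, 2.19-fold over day 2 and 1.77-fold over day 6. AT2G16990, for a transporter of the major facilitator type, had day 4 signals of 75.3 and 68.1 and was dim on both arrays of days 0, 6, 8 and 10.

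For 6 genes no role is given. Of these, AT2G28410 had signals of 16.1 and 9.88 at day 0, 5.77 and 3.16 at day 2, 285 and 285 at day 4, 124 and 145 at day 6, 60.1 and 61.8 at day 8 and 21.8 and 31.3 at day 10. AT3G08490 followed the same order of days, with 3.75 and 8.10 at day 2, 151 and 140.4 at day 4 and 58.9 and 83.6 at day 6. Both were dim on days 0 and 2, like AT1G79620, AT2G24230 and AT5G48740, which makes 5 such genes. AT4G23720 had 77.3 and 76.0 at day 2, 240.0 and 251 at day 4 and 119 and 167 at day 6. AT2G01580 had 34.7 and 34.2 at day 2, 158 and 174 at day 4 and 56.6 and 62.9 at day 6. AT5G64690 had 71.1 and 73.3 on day 4, and AT1G23520 had 65.4 and 67.5, close to the least signal of 60 that the rule allows.

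The genes were grouped by their next highest day, and the groups were not sharply apart. The next highest day was day 2 in 5 genes (AT5G38160, AT2G16990, AT5G07260, AT1G23520 and AT3G11180) and day 6 in 20. In the 5, the means of day 6 were between 13.3 and 43.6, and their day 6 position between day 0, set at 0%, and day 4, set at 100%, was 0% to 24.1% on the log2 scale with signals raised to 20. Their day 2 position was 5.16% to 65.1%, lowest in AT2G16990. In the 20, the day 6 position was 24.1% to 83.3%, with a median of 68.3%, while their day 2 position was 0% to 73.0%, with a median of 28.3%. Some of the 20 were nearly level on both sides of the peak. AT3G27400 stood at 73.0% on day 2 and 78.5% on day 6, and AT4G14930 at 63.2% and 67.9%. The median position of the 20 was 47.3% on day 8 and 43.0% on day 10, and in 17 of them the mean declined at each step over days 6, 8 and 10. By the grouping, day 6 stood above days 2, 8 and 10 in each of the 20. In the same way, day 2 stood above days 6, 8 and 10 in each of the 5. Of the decline in the 17, only the step from day 8 to day 10 was not set by it. In AT4G14930 that step was from a mean of 255.4 to 254.7. The positions also include day 4, which the choice of genes used, so they are a description.

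**Figure D3:**
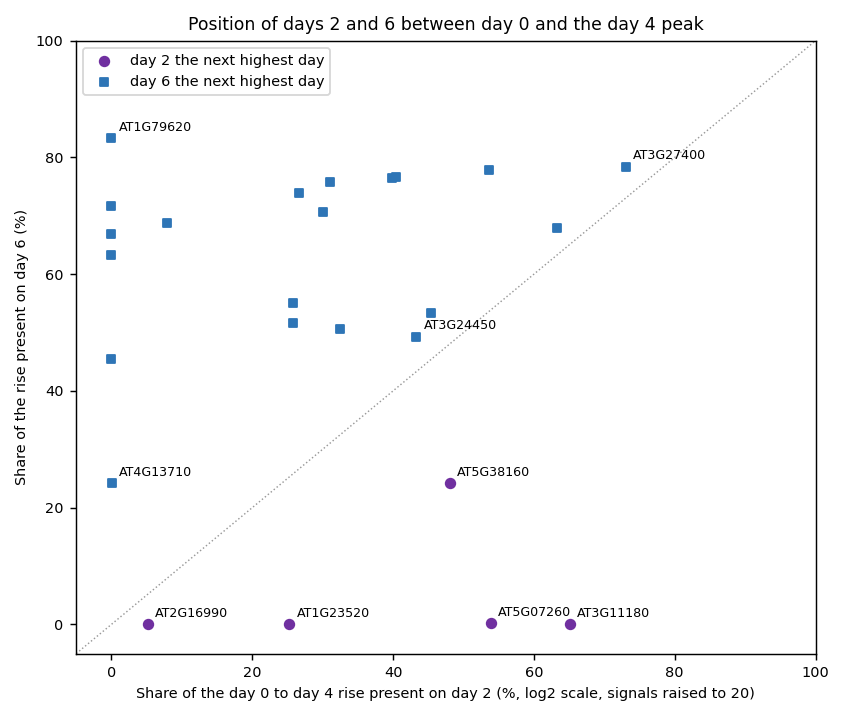
Position of day 6 against that of day 2 between day 0 (0%) and day 4 (100%), on the log2 scale with signals raised to 20, 1 point per gene. The 5 genes with day 2 next highest (circles) lie at or below 24.1% for day 6, and the 20 with day 6 next highest (squares) range up to 83.3%. Which of the 2 positions of a gene is the higher follows from this grouping.

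Comparisons between days that the choice of genes treated alike were tested with limma, over all 15103 probe sets. On day 2, in new medium with the hormone, against day 0, the untreated culture, 21 of the 25 genes rose and AT2G28410 fell, against 35.3% higher and 26.1% lower among all probe sets (61.3% called). The median log2 difference was 1.58 over the 25, or 0.90 with dim days at their bound, and 0.07 over all. AT4G14930, at 294 and 249 on day 2 against 69.9 and 60.5 on day 0, rose 4.16-fold (log2 2.06 ± 0.12, SE, n = 2 each, adjusted p = 7.62e-08, limma). AT3G10080 was at least 5.99-fold higher on day 2 (adjusted p = 4.68e-07, limma), and AT3G27400 at least 8.40-fold (adjusted p = 8.07e-07, limma). All 4 pectate lyase-like genes were called higher, but the calls of AT3G24230 (log2 1.33) and AT4G13710 (log2 1.39) were lost with signals raised to 20, at 0.27 and 0.0019, and with arrays raised to their 40th percentile, at 0.40 and 0.14. The genes that did not pass were AT5G48740 and AT3G08490, dim on both days, and AT1G21440, at 57.7 and 60.1 on day 2 against 53.9 and 30.4 on day 0 (log2 0.54 ± 0.24, adjusted p = 0.0736, limma). The calls of AT1G79620, AT2G24230 and AT2G28410 compare days that were both dim. All of these, the lower call of AT2G28410 among them, were lost with signals raised to 20 and with arrays raised to their 40th percentile. With signals raised to 20, 15 genes were called, each of them higher. Of all 15103 probe sets, 5029 were then higher and 3974 lower (59.6% called). The call of AT2G16990 (log2 0.69) was lost on leaving out any of 8 single arrays, at 0.49 to 0.69, and in 4 other alternatives. That of AT2G24230 (log2 1.58) was lost on leaving out any of 9, at 0.28 to 1.87, and in 6 other alternatives, quantile normalization among them. The call of AT5G64690 (log2 4.72) was lost with signals raised to 20, at 0.48. That of AT5G06670 (log2 0.82) was lost without the second day 2 array, at 0.47.

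On day 10 against day 0, 19 of the 25 genes were higher, AT3G24450 was lower and 5 did not pass, against 36.4% higher and 27.6% lower among all probe sets (63.9% called). With arrays centred on their medians these were 18 higher and 2 lower, and the share of higher among all calls was 41.4%, against 56.9% as deposited. AT3G24450, at 54.98 and 49.7 on day 10 against 91.7 and 78.0 on day 0, fell by 0.69 on the log2 scale (SE 0.15, adjusted p = 0.00171, limma). AT3G53190, at 132 and 138 on day 10, was at least 7.43-fold over its dim day 0 (adjusted p = 2.91e-08, limma), and AT3G10080, at 142 and 131, at least 7.48-fold (adjusted p = 2e-07, limma). All 4 receptor-like kinase genes were also called higher, with AT1G79620 at least 4.84-fold over day 0 (adjusted p = 1.53e-09, limma). The call of AT5G48740 (log2 1.69) was lost with signals raised to 20 and with arrays raised to their 40th percentile, at 0.20 and 0.38. Those of AT5G07260 (log2 2.74), at 0.07 and 0.24, and AT5G64690 (log2 4.50), at 0.27 and 0.45, were lost in the same settings. The 5 that did not pass were AT1G21440, bright on both days, and AT5G38160, AT3G11180, AT2G16990 and AT1G23520, each dim on both. Those 4 are among the 5 genes whose next highest day was day 2. The call of AT4G13710 (log2 0.84), dim on both days, was lost on leaving out the first day 0 array or either day 10 array, at 0.32 to 0.88. It was also lost in 6 other alternatives, at 0.00 to 0.84: both floors, quantile normalization, arrays centred on medians, no filter and the 4 arrays alone. The call of AT2G28410 (log2 1.05) was lost without the second day 0 or the second day 10 array, at 0.70 to 0.79, and with signals raised to 20, at 0.39. This comparison and that of day 2 share the day 0 arrays.

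Days 10 and 2 share the labelled temperature of 27 C. On day 10 against day 2, 8 of the 25 genes were higher, 5 lower and 12 did not pass, against 26.1% higher and 24.1% lower among all probe sets (50.1% called). With arrays centred on their medians 6 were higher and 6 lower, and the share of higher among all calls was 35.9%, against 52.0% as deposited. The 5 lower genes were AT5G38160, AT5G07260, AT3G11180 and AT1G23520, whose next highest day was day 2, and AT3G24450. For the first 4, that grouping already fixed the direction. AT5G38160, dim at 11.7 and 13.0 on day 10 against 95.4 and 93.1 on day 2, was at least 4.43-fold lower (adjusted p = 5.16e-07, limma). AT3G24450, at 54.98 and 49.7 on day 10 against 146 and 204 on day 2, was 3.29-fold lower (log2 -1.72 ± 0.15, adjusted p = 4.29e-06, limma). The 8 higher genes were AT1G79620, AT5G48740, AT3G53190, AT3G24230, AT1G03820, AT5G06670, AT2G28410 and AT3G08490. AT1G79620, at 90.8 and 85.5 on day 10 against dim arrays on day 2, was at least 4.75-fold higher (adjusted p = 2.15e-07, limma). AT3G24230, at 57.7 and 55.5 on day 10 against 22.4 and 25.9 on day 2, was 2.35-fold higher (log2 1.23 ± 0.18, adjusted p = 0.000177, limma). The call of AT3G53190 (log2 0.57) was lost without the first day 2 or the second day 10 array, at 0.32 to 0.54, and with arrays centred on medians, at 0.40. That of AT5G06670 (log2 0.55) was lost on leaving out any of 9 arrays, at 0.20 to 0.56, and in 6 other alternatives, at 0.38 to 0.55, quantile normalization among them. With signals raised to 20, the calls of AT5G48740 (log2 2.28) and AT2G28410 (log2 2.61) were lost, at 0.20 and 0.39, and that of AT5G48740 also with arrays raised to their 40th percentile, at 0.36.

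On day 8 against day 6, both after the peak, 4 of the 25 genes fell and 0 rose, against 2.61% lower and 2.98% higher among all probe sets (5.59% called). At an unadjusted p under 0.05 in the same limma fit these were 12 lower and 0 higher, against 8.55% lower and 12.2% higher among all. The median log2 difference was -0.53 over the 25 and 0.04 over all. The share of higher among all calls was 28.9% with arrays centred on their medians, when 6 of the 25 were lower, and 53.3% as deposited. AT3G24450, at 89.3 and 80.3 on day 8 against 180.0 and 200.5 on day 6, was 2.24-fold lower (log2 -1.17 ± 0.15, adjusted p = 0.00307, limma). AT5G38160, dim at 13.7 and 19.3 on day 8 against 45.7 and 41.5 on day 6, was at least 1.98-fold lower (adjusted p = 0.00322, limma). AT3G53190, at 171 and 229 on day 8 against 366 and 369 on day 6, was 1.85-fold lower (log2 -0.89 ± 0.17, adjusted p = 0.0149, limma). AT5G48740, at 37.6 and 35.4 on day 8 against 60.2 and 93.8 on day 6, was 2.06-fold lower (log2 -1.04 ± 0.27, adjusted p = 0.0457, limma). AT3G10080 and AT2G28410 narrowly missed the threshold, with log2 differences of -1.14 ± 0.30 each and adjusted p = 0.0502 and 0.0504 (limma). The count of 4 depended on single arrays, and so did the share of all probe sets called. Leaving out an array leaves its day with 1 array, so counts from those fits are not given here. The call of AT3G53190 was lost without either day 6 array or the first day 8 array, at -0.90 to -0.68. That of AT5G48740 was lost without any 1 array of days 4, 6 or 8, at -1.36 to -0.72. It was also lost with no filter and without the variance trend.

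**Figure D4:**
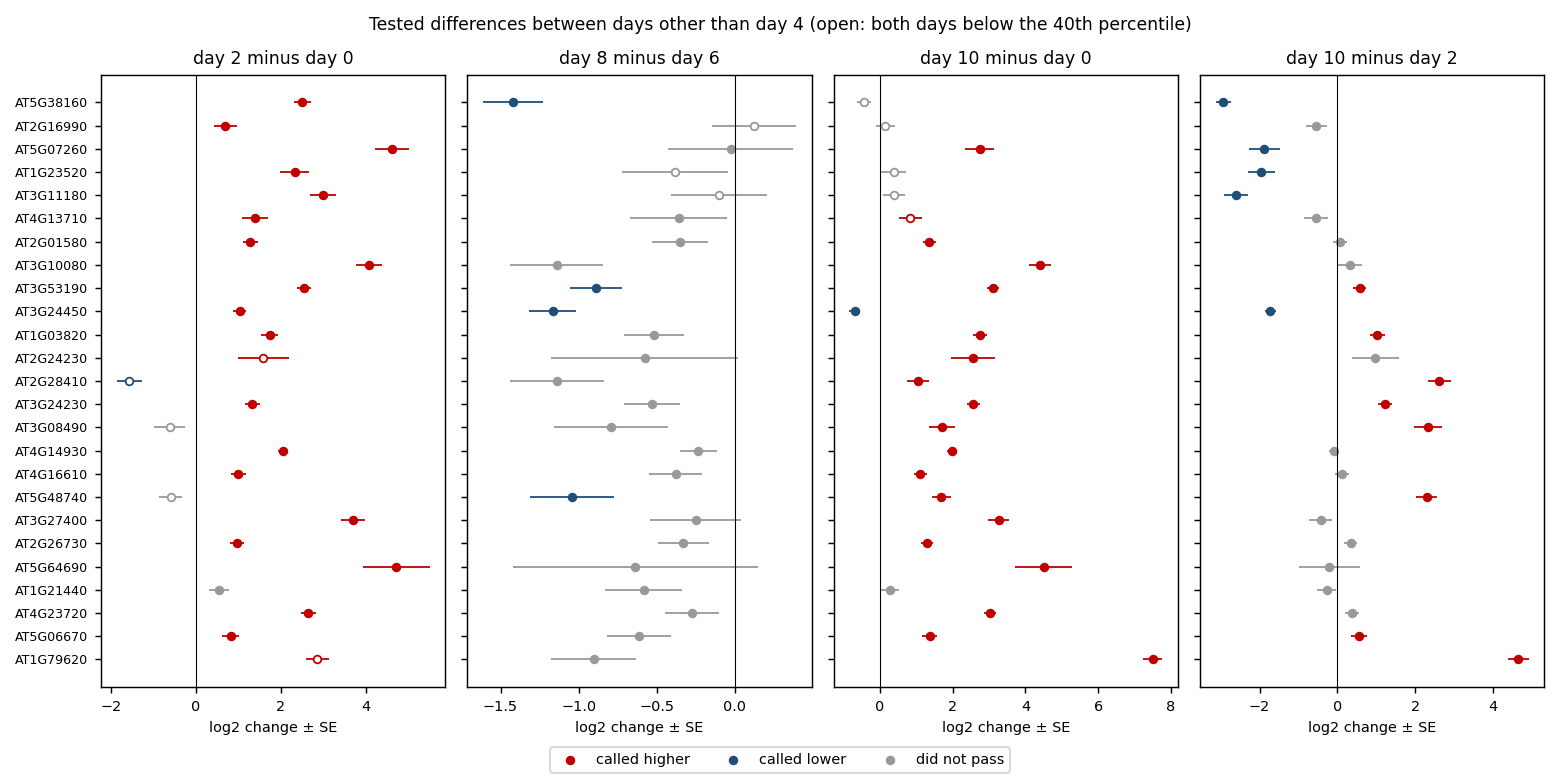
Tested log2 differences (later minus earlier day) with the SE of the fit, 1 row per gene, in 4 panels with their own x axes. Genes whose next highest day was day 2 come first, then those with day 6, each group in order of the day 4 excess. Open points are dim on all 4 arrays compared, filled points are not, and colours give the limma call; in the panel of day 8 minus day 6 the 4 called points lie left of 0.

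Genes with a name of their own that meet the same thresholds numbered 7, and the 25 genes can be set beside them. SWEET11 and SAG29, both sugar transporters of the SWEET family, had 603 and 674, and 976 and 904, on day 4. The day 4 signal of SWEET11 was 23.8-fold over day 2 and 8.82-fold over day 6. EXPA4, an expansin that loosens the wall, had 692 and 856 on day 4, and TBL36, of a family that acetylates wall polysaccharides, had 257 and 325. SBTI1.1, a subtilisin-like protease, had 330.3 and 333, SCPL45, a serine carboxypeptidase-like protein, 955 and 1016, and TUB5, a beta-tubulin, 95.4 and 94.9. Of the 3 loci left out of the rule, AT4G04460 and AT1G71250 meet its thresholds. AT5G26330 does not, since its day 4 mean exceeded that of day 6 by only 0.12 on the log2 scale.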

How the data were processed

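RNA of 12 culture samples was read on Affymetrix ATH1 arrays, and the authors deposited 1 table with an intensity value per probe set, not logged, from MAS5 as the labels' processing notes of the submitters give it. The arrays' trimmed means are equal, at 100.01, so they had been scaled. Precision is limited by the number of arrays. Of 22746 probe sets other than 64 controls, 13513 have 1 gene in the platform annotation, 503 several and 8730 none listed; all 25 loci are in the RefSeq table. Samples were grouped by the day in their labels.

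The test took probe sets for which, on 1 day or more, both arrays reached their 40th percentile, which kept 15103 and left out 7643. The 25 genes were kept by their choice, since the least day 4 signal of 60 lies above the highest 40th percentile of 22.1. AT2G16990, called on day 2 against day 0, passed through day 4 alone. AT1G79620, AT2G24230 and AT2G28410, also called there, passed only through day 4 and later days. Signals on the log2 scale went into limma 3.58.1 (R 4.3.3; lmFit, then eBayes using a variance trend), fitting 1 mean per day with 6 residual and a median of 5.19 prior degrees of freedom. All tests were 2-sided, p-values were adjusted by Benjamini-Hochberg over all 15103, and calls had an adjusted p under 0.05. The script was tested on simulated data. The median SE of a difference was 0.149. Tables were made with Python 3.11.15, pandas 2.3.3 and numpy 2.4.6.

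The 25 genes, the lists and the tests were chosen with earlier results of these data known, and the pectate lyase-like and jasmonate oxygenase lists after the 25 were seen. The rule for naming took all of the genes where there were 30 or fewer, and all named genes that meet the thresholds where there were 15 or fewer. Promoter and protein sequences were not analysed here. Alternatives were quantile normalization, arrays centred on medians, a filter at the 60th percentile or none, signals raised to 20 or to the 40th percentile, a block for the replicate number, eBayes without the trend, the 4 arrays compared alone, and leaving out each array.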

Additional observations from a re-analysis of the deposited data

How the results depend on the processing

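Of 59 calls on the 25 genes in the 4 comparisons, 40 held under all 21 alternatives and 42 under all that left out no array. Only day 8 against day 6 moved by over 1.5 times from its count of 4, where 5.59% of all probe sets were called. It was 9 with signals raised to 20 (7.92% of all called) and 9 with arrays raised to their 40th percentile (7.81%). With the 4 arrays of the days compared alone it was 7 (5.48%), and it also moved on leaving out single arrays. The cause was not tested. The counts were 22 for day 2 against day 0, 20 for day 10 against day 0 and 13 for day 10 against day 2. None of these moved by over 1.5 times on leaving out 1 array. AT2G28410, lower on day 2 than on day 0 by -1.56 on the log2 scale, was at 0.00 with signals raised to 20 and 0.0255 with arrays raised to their 40th percentile, settings that hold dim arrays at the floor. Differences between the 2 arrays of a day correlated from day to day at -0.07 to 0.13 over 15 pairs of days, 4 of them over 0.1. These differences may be technical, so the values cannot decide whether replicate numbers pair the arrays across days. With the replicate block the counts were 22, 4, 20 and 13, as without it, where 62.6%, 6.48%, 65.4% and 51.4% of all probe sets were called with the block. The rule itself found 25 genes with quantile normalization, with arrays raised to their 40th percentile or with signals raised to 1, 27 with arrays centred on medians, and 20 to 36 on leaving out 1 array, the lowest without the first day 6 array and the highest without the first day 4 array. Dim signals on day 0 limit 19 of the 25 genes to bounds there.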
